A study of Mus musculus with 12 samples.

Results

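The comparison described here set the response of Oli-neu cells to conditioned neuronal medium against their response to Y27632. The line, of mouse oligodendroglial origin, here stably expressed a fusion of proteolipid protein with EGFP in treated and untreated cultures alike. Y27632 is a small-molecule kinase inhibitor. All 12 arrays of the series took part: 6 from cells kept for 16 hours in medium taken from primary neuron-enriched cultures, and 6 from cells given Y27632 for the same time, at a dose not given in the sources used here. Each array carried treated RNA in one dye and RNA of untreated Oli-neu cells in the other, and 3 arrays of each experiment had the dyes exchanged. The sample labels name the first treatment only as neuron, and the design text of the series speaks of the presence of neurons. The labels spell the compound Y27631, and the design text places neurons in both arms of its experiment although the labelled reference is untreated cells. The replicates are called technical in the design text, so p-values measure the spread between arrays and not between cultures. The treatments were hybridised as separate experiments, so treatment and experiment cannot be told apart, and whether both used the same untreated RNA was not stated. A single cell line stands for oligodendroglia, and other cells of the primary neuronal cultures may have added to the medium.

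Oligodendrocytes develop from precursors that stop dividing, extend branched processes and wrap axons with myelin. Factors released by neurons influence these steps, and the outgrowth of processes depends on the actin cytoskeleton. Of the genes followed here, Nefl encodes the light neurofilament chain of axons and Gfap the intermediate filament of astrocytes. Fxyd3 encodes a small membrane protein of the family that modulates the sodium pump, Atf3 a stress-induced transcription factor, and Apod a secreted lipid-binding lipocalin.

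Values are given as treated over untreated log ratios in SD units, in which the spread of all features on an array has an SD of 1. The quantity compared, called the difference, is the mean response to conditioned neuronal medium minus the mean response to Y27632. A positive difference therefore means a more positive response to the medium. An SD unit need not be the same size in both experiments. Of 44290 features, 41230 were measured on all arrays, and 31700 of these carried 1 gene symbol, covering 19087 genes. The direction of the ratios rests on 45 genes that the study lists as moving the same way, up or down, in both treatments. The deposited sign was opposite to the listed direction for 20 of 21 genes listed as up and 21 of 21 measured genes listed as down after the medium, and for 21 of 21 in each direction after Y27632, so all values were reversed. Among arrays of one dye orientation, correlation across features ran from 0.859 to 0.89 for the medium and from 0.731 to 0.809 for Y27632. Between orientations it was only 0.249 to 0.296 and -0.262 to -0.12, so the dye carried much of the spread within each experiment. Array medians lay between -0.101 and 0.101 SD units. Because the values are ratios, whether a cell type's markers were present or absent cannot be read from them.

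The promoters of 3 genes with opposite responses are shown because both arms of the result meet in them: Fxyd3 and Gfap fell with the medium and rose with Y27632, and Slc18a2 did the reverse on both of its features. On one Slc18a2 feature the fall with Y27632 was seen with treated RNA in Cy3 only. The sequences are RefSeq promoters of build GRCm38.p6, 300 bases each on the gene's own strand, at chr7:31076648-31076947 (minus strand), chr11:102897151-102897450 (minus strand) and chr19:59260628-59260927 (plus strand). Capitals mark a match, on either strand, to a TEAD site (GGAATG), an AP-1 site (TGANTCA), a cAMP response element (TGACGTCA) or a CArG box.
Fxyd3: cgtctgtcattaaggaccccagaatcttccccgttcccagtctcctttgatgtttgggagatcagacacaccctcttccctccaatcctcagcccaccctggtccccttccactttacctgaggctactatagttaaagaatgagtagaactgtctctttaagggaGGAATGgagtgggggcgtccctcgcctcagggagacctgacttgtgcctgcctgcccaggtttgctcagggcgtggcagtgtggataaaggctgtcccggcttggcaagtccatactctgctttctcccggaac
Gfap: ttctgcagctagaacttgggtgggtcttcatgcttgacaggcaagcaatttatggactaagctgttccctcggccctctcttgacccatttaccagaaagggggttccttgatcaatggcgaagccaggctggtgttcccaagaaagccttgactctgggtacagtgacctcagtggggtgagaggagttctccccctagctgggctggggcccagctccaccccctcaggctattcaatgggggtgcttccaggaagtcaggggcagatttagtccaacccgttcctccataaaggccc
Slc18a2: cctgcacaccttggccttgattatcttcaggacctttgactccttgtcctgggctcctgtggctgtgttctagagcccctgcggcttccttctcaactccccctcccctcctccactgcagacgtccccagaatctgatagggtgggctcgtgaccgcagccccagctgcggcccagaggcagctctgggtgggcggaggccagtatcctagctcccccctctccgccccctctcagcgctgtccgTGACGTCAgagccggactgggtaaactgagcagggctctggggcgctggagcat
The Fxyd3 promoter held 1 TEAD match, at positions -84 to -79 from the annotated start, and the Slc18a2 promoter held 1 cAMP response element that spans its start. The Gfap promoter held no match to these letters. Of 32851 RefSeq promoters of this length, 14.7% held the TEAD letters, 7.81% the AP-1 letters, 1.79% the full cAMP response element and 1.63% a CArG box. Among 150 promoters of 109 genes that fell with the medium and rose with Y27632, the shares were 18%, 6.67%, 4.67% and 1.33%. Among 99 promoters of 76 genes of the reverse pattern they were 8.08%, 8.08%, 2.02% and 1.01%. The shorter letters TGACG, which the full element contains, had the other order, with 22% of the former promoters, 34.3% of the latter and 20.8% of all. These shares are descriptions without a test, several promoters belong to the same gene, and the motifs were chosen with the gene lists known.

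The responses to the treatments differed for a small set of features by a large amount. At an adjusted p under 0.05 and a difference of at least 2 SD units, 883 features were higher with conditioned neuronal medium, 2.14% of those tested, and 608 were lower, 1.47% (limma, Benjamini-Hochberg adjusted). The adjusted p alone was passed by 46.3% of features. On 1257 of the 1491 called features, the 6 arrays of one treatment did not overlap the 6 of the other, against 11.5% of all features. The difference had the same sign in both dye orientations for 1486 of them, against 26763 of all 41230 measured features. The calls were made from these same arrays and already need a difference of at least 2 SD units over both orientations. Neither count is therefore separate support. In 300 called features the 2 treatments moved the RNA in opposite directions, with each treatment's own mean at least 1 SD unit from 0 and past its own test. In 118 of these (0.286% of features) the RNA rose with the medium and fell with Y27632, and in 182 (0.441%) it fell with the medium and rose with Y27632. On 222 of the 300, all arrays of one treatment lay above 0 and all of the other below it, which held for 3% of all features. The class was chosen from the means of these same arrays, so this too is no separate support. The features named 224 genes. Just inside the limit of 1 SD unit lay Slco1a1 (-1.0 with the medium, 2.41 with Y27632) and Poc5 (1.52 and -1.001), and just outside it Maf (-0.999 and 1.87) and Tat (-1.01 and 0.994). A further 331 called features had a mean of at least 2 SD units with the medium and under 0.5 with Y27632, and 81 the reverse. Means of the same sign were found in 324 called features, 192 of which also belong to these 331 and 81. The remaining 647 called features met none of these definitions.

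**Figure D1:**
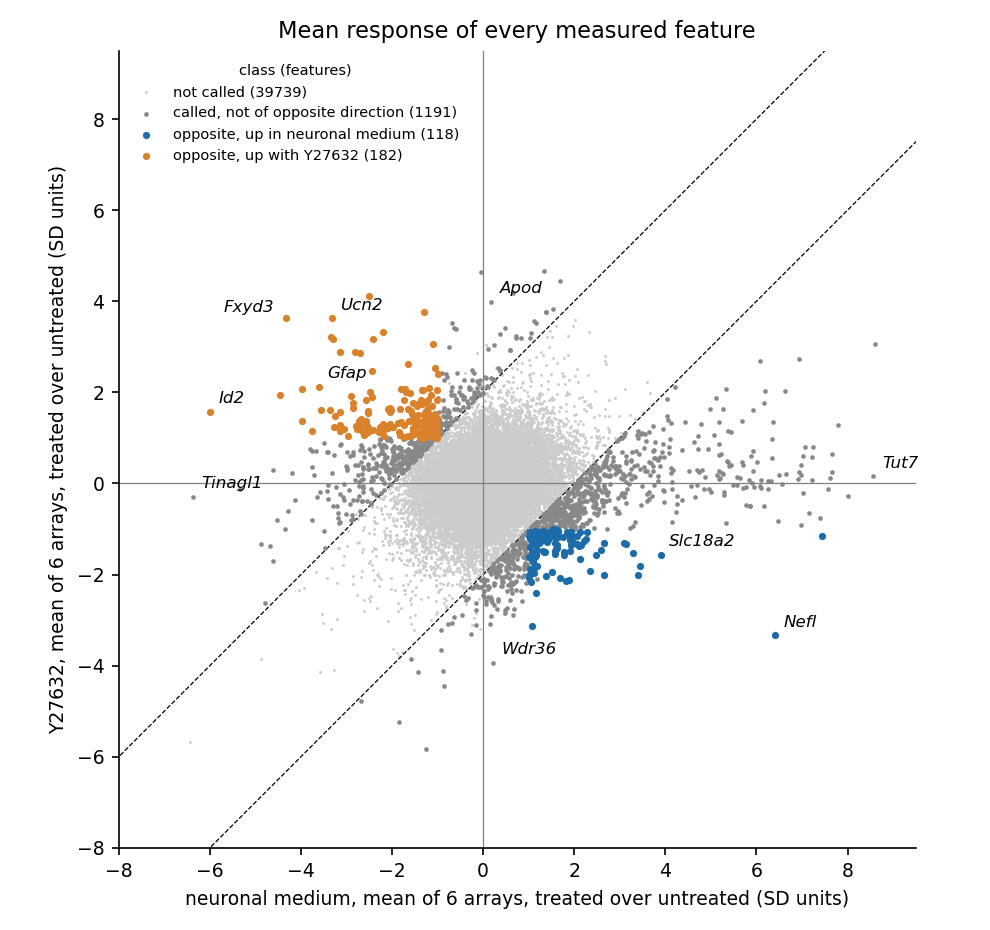
Each point is one of the 41230 measured features, with its mean over 6 arrays after conditioned neuronal medium on the horizontal axis and after Y27632 on the vertical axis, both as treated over untreated in SD units. Blue points (118) rose with the medium and fell with Y27632, orange points (182) did the reverse, dark grey points are the other called features, and dashed lines mark a difference of 2 SD units. The labelled features lie away from the diagonal, with Nefl at 6.41 and -3.33 and Fxyd3 at -4.34 and 3.63.

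The count of features with opposite direction depends on how large an SD unit of one experiment is relative to the other. With the Y27632 values multiplied by 0.8 it was 64 and 105 in the 2 directions. The count also depends on the size of the values against the fixed limits. With every array divided by its scaled median absolute deviation it was 317 and 369, with all 300 among them. From the arrays with treated RNA in Cy3 alone 140 of the 300 were found again, and from those with treated RNA in Cy5 alone 133, while 1299 and 1173 of the 1491 called differences were found again.

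Nefl and Fxyd3 marked the extremes of the comparison. For the Nefl feature with the larger change, the arrays ran from 5.70 to 7.84 SD units with conditioned neuronal medium (median 6.19) and from -3.64 to -2.87 with Y27632 (median -3.35). All arrays of the medium were therefore far above 0 and all arrays of Y27632 far below it. The difference was 9.74 ± 0.230 SD units (SE, n = 6 arrays per treatment, limma adjusted p = 1.3e-11), the largest positive one among named features. The second Nefl feature did not repeat the rise: it ran from -0.852 to 0.433 with the medium and from -2.46 to -1.05 with Y27632, a difference of 1.58 ± 0.224. Both Nefl features thus fell with Y27632, and only 1 of 2 rose with the medium.

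Fxyd3 had 1 feature. It ran from -5.37 to -3.42 with the medium (median -4.32) and from 2.58 to 4.44 with Y27632 (median 3.78), with no array on the other side of 0. The difference was -7.97 ± 0.132 SD units (limma adjusted p = 1.1e-12), the most negative of all named features, and it was nearly the same with treated RNA in Cy3 (-8.08) and in Cy5 (-7.86).

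All 3 Gfap features fell with the medium and rose with Y27632. Their means with the medium were -3.60 ± 0.571, -2.70 ± 0.856 and -2.52 ± 0.753 SD units (SD, n = 6 arrays), and with Y27632 2.13 ± 0.579, 2.85 ± 1.24 and 0.764 ± 0.541. No array of any Gfap feature crossed 0, and the differences were -5.73, -5.55 and -3.28 with SEs of at most 0.288. The third feature stayed outside the class of opposite direction because its Y27632 mean was under 1 SD unit.

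Atf3 showed the same pattern at a smaller size. It ran from -2.17 to -0.417 with the medium (median -1.38) and from 0.292 to 3.30 with Y27632 (median 1.62), for a difference of -3.10 ± 0.135 SD units (limma adjusted p = 1.8e-09). The groups did not overlap, but within each the arrays split by dye: the difference was -2.51 with treated RNA in Cy3 and -3.68 in Cy5.

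Apod responded to Y27632 and not detectably to the medium. With Y27632 it ran from 2.57 to 5.62 (median 3.65), and with the medium from -1.16 to 1.37 (median 0.176), with a medium mean that did not pass its own test (adjusted p = 0.41). The difference was -3.81 ± 0.242 SD units. For the 8 features of these 5 genes, the exact permutation test of the difference within dye orientations gave p = 0.005 (two-sided), the smallest p that 400 arrangements allow.

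**Figure D2:**
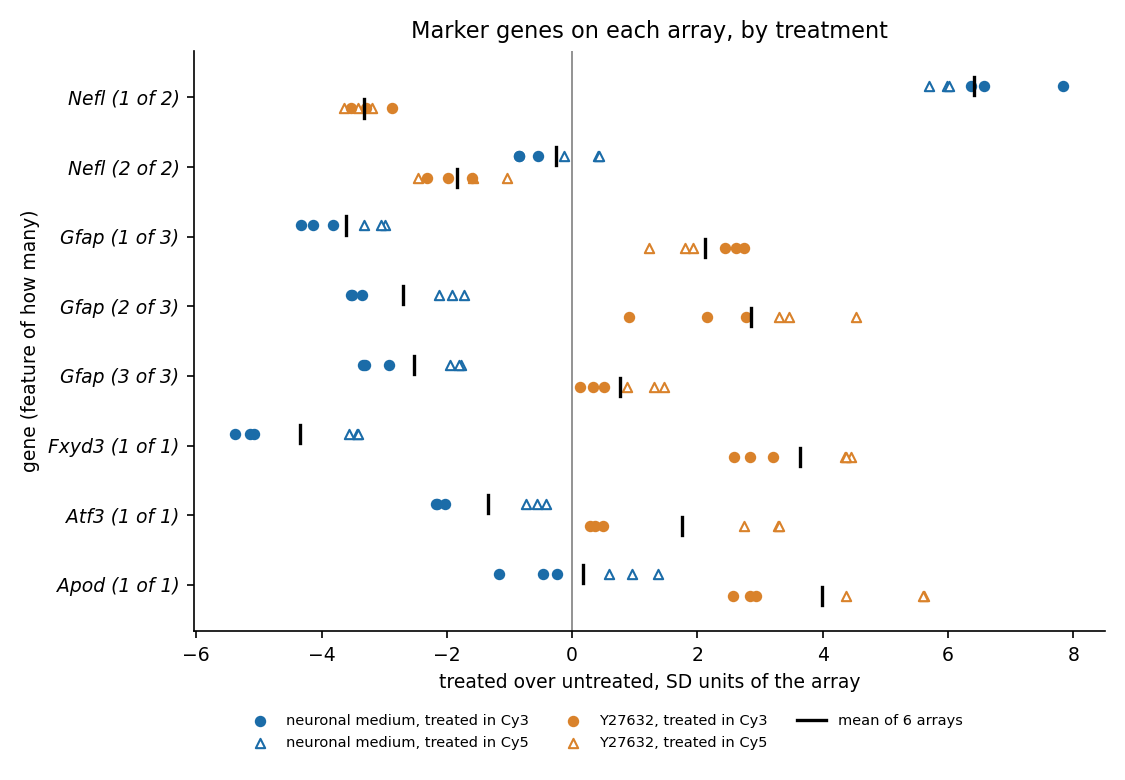
Values of Nefl, Gfap, Fxyd3, Atf3 and Apod on each of the 12 arrays, as treated over untreated in SD units, with 1 row per feature. Blue marks conditioned neuronal medium and orange Y27632, filled circles treated RNA in Cy3 and open triangles in Cy5, and black bars the mean of 6 arrays. Gfap, Fxyd3 and Atf3 lie left of 0 with the medium and right of 0 with Y27632, the first Nefl feature lies the other way, and Apod is displaced with Y27632 only.

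The genes that fell with the medium and rose with Y27632 included secreted ligands. Ucn2, a peptide of the corticotropin-releasing factor family, ran from -4.32 to -2.07 SD units with the medium (median -3.40) and from 2.81 to 4.44 with Y27632 (median 3.60). Igf1, a growth factor that promotes oligodendrocyte survival and myelination, ran from -2.82 to -1.33 (median -2.32) and from 2.79 to 4.06 (median 3.27). The groups were separated by 0 for both genes, and their differences were -6.95 ± 0.179 and -5.53 ± 0.155. The second Igf1 feature had a difference of -2.09, with a medium mean of only -0.327. Lgi4, a secreted protein that Schwann cells need for myelination, was opposite on both of its features. Its means were -2.82 ± 0.345 and -2.43 ± 0.512 with the medium and 2.88 ± 0.358 and 2.47 ± 0.227 with Y27632, so the features of this gene gave almost the same answer (differences -5.70 and -4.90).

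Membrane receptors formed another part of this class. The natural killer cell lectin receptors Klrb1c and Klrb1a had medians of -3.30 and -3.31 SD units with the medium and 2.98 and 3.05 with Y27632. Both genes were separated by 0 on all arrays, with differences of -6.54 ± 0.204 and -6.47 ± 0.213. They belong to a family of similar genes, so the probes may share signal, and the second Klrb1c feature differed by only -0.836. Itgb3, an integrin beta subunit, ran from -2.77 to -1.83 and from 2.24 to 3.80 on one feature (difference -5.59 ± 0.186). On the other it had means of 1.18 and 0.673 and did not pass the test (adjusted p = 0.056), so its opposite direction rests on 1 of 2 probes.

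Among nuclear and cell-cycle regulators, Id2 and Gadd45b stood out. Id2, an inhibitor of basic helix-loop-helix factors that holds back oligodendrocyte differentiation, ran from -7.34 to -5.06 SD units with the medium (median -5.85) and from 0.745 to 2.16 with Y27632 (median 1.69). The Id2 difference was -7.57 ± 0.227 on this feature, -4.38 ± 0.191 on the next and -0.566 ± 0.131 on the third. The second feature had means of -3.50 with the medium and 0.883 with Y27632. On the third, both means were positive (0.816 and 1.38), so only 1 of 3 Id2 features was in the opposite class. Gadd45b, a gene induced by stress and growth arrest, was opposite on both features, with medium means of -4.46 and -2.42 and Y27632 means of 1.95 and 1.18. The orphan nuclear receptor Esrrb had a difference of -4.47 ± 0.143 on one feature, with medians of -2.47 and 2.11, while its second feature was too variable for a call (-1.82 ± 1.59).

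Further members were picked out after their values were seen. The neighbouring cyclin-dependent kinase inhibitor genes Cdkn2b and Cdkn2a had means of -3.97 and -2.08 SD units with the medium and 1.38 and 1.22 with Y27632. All 3 features of the parathyroid hormone receptor gene Pth2r were opposite, with medium means from -2.79 to -2.53 and Y27632 means from 1.26 to 1.56. Also in the class were both called features of myosin light chain kinase Mylk (-3.17 and -2.66 with the medium, 1.21 and 1.17 with Y27632), Csrp2 (-2.20 and 1.32), Csrp1 (-1.27 and 1.11) and the anchoring protein and exchange factor gene Akap13 (2 of 5 features). The remaining Mylk feature differed the other way (0.936 ± 0.171). Others were Casp1 (-2.45 and 1.89), P2ry12 (-1.42 and 1.75), Mertk (-1.80 and 2.07), Ly96 (-1.72 and 1.02) and both features of Tril, a partner of Toll-like receptors (-1.65 and 2.63 on one, -1.03 and 1.21 on the other).

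**Figure D3:**
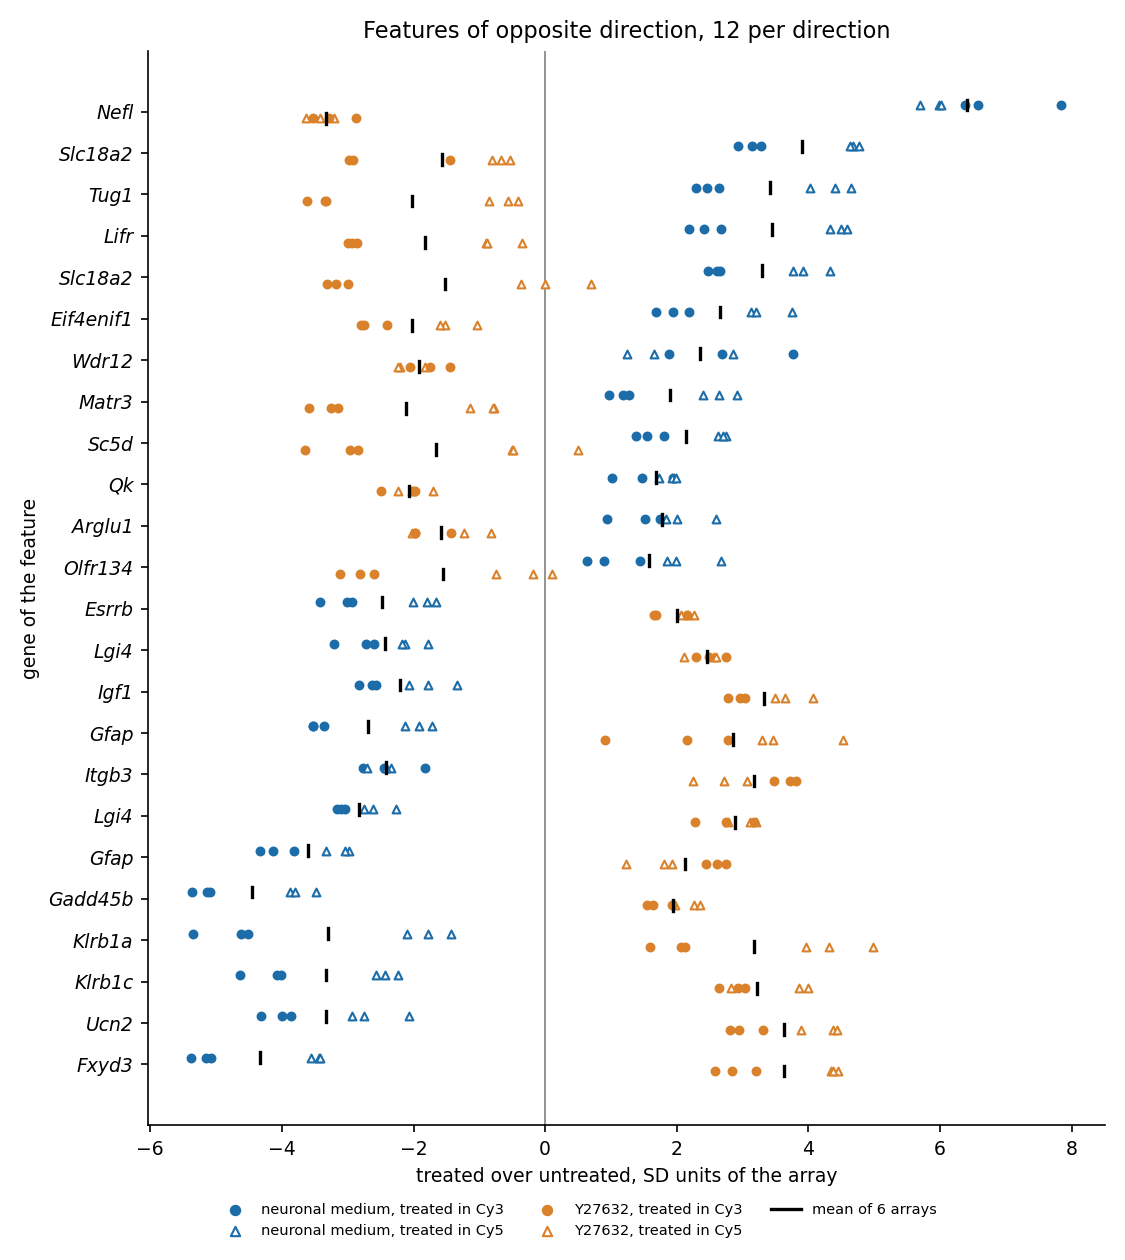
The 12 features per direction with the largest response in the weaker of the 2 treatments, among features of opposite direction with 1 gene symbol. Each row shows the 12 arrays as treated over untreated in SD units, coloured and marked by treatment and by dye of the treated RNA, with a black bar at each mean of 6 arrays. Nefl, Slc18a2 and Tug1 lie to the right with the medium, and Fxyd3, Ucn2 and Klrb1c to the left. Triangles and circles separate for many features, and on Slc18a2, Sc5d and Olfr134 some Y27632 arrays reach 0 or above.

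The reverse pattern, up with the medium and down with Y27632, held a transporter and a receptor with large values. Slc18a2, which loads monoamines into synaptic vesicles, ran from 2.93 to 4.76 SD units with the medium (median 3.96) and from -2.99 to -0.541 with Y27632 (median -1.12). Its difference was 5.47 ± 0.230 on this feature and 4.82 ± 0.178 on the other. On that other feature the fall with Y27632 came from the arrays with treated RNA in Cy3 (-3.316 to -2.998). With treated RNA in Cy5 the Y27632 arrays lay around 0 (-0.3625 to 0.690). Lifr, the receptor of leukaemia inhibitory factor, ran from 2.18 to 4.59 (median 3.50) and from -3.001 to -0.353 (median -1.87). The groups of Lifr were separated by 0 on this feature (difference 5.27 ± 0.141), a second feature differed by 2.01, and the remaining 3 by 1.15 to -0.231.

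Several members of this class act on RNA. The long noncoding RNA Tug1 had medians of 3.33 SD units with the medium and -2.09 with Y27632 (difference 5.43 ± 0.147), and its second feature differed by 2.46. Qk, an RNA-binding protein required for myelination, had medians of 1.83 and -2.01 (difference 3.75 ± 0.177), but its other features differed by only 0.551 and 0.380. Eif4enif1, a carrier of the cap-binding factor eIF4E, differed by 4.67 ± 0.165, and Matr3, an RNA-binding protein of the nuclear matrix, by 4.01 ± 0.142. Wdr12, needed for ribosome assembly, differed by 4.27 ± 0.317 and Arglu1, a modulator of splicing, by 3.35 ± 0.228. The other features of Eif4enif1 and Arglu1 had differences from 0.623 down to -0.441. Those of Wdr12 did not rise with the medium (means -0.150 and -0.219), and that of Matr3 differed by 1.21 and was not called. The calls of Eif4enif1, Arglu1, Wdr12 and Matr3 therefore come from 1 probe each. Sc5d, a desaturase of cholesterol synthesis, had means of 2.14 ± 0.628 and -1.66 ± 1.70, and Olfr134, an olfactory receptor, of 1.58 ± 0.748 and -1.56 ± 1.44. For both genes the fall with Y27632 came mainly from the arrays with treated RNA in Cy3. Those ran from -3.652 to -2.841 for Sc5d and from -3.117 to -2.605 for Olfr134. With treated RNA in Cy5 the Y27632 arrays ran from -0.5042 to 0.4917 and from -0.754 to 0.1078. The second Sc5d feature had means of -0.551 and -0.600 (adjusted p of the difference 0.88) and the second Olfr134 feature of 0.571 and 0.219, so both calls rest on 1 of 2 probes. Picked after the values were seen were both features of Parp2 (means 1.58 and 1.44 with the medium, -1.48 and -1.18 with Y27632) and 2 of 4 features of the condensin subunit gene Smc2. So were 1 of 2 features of Dtl (1.34 and -1.51) and 1 of 3 features each of Cdc7 (1.15 and -1.61) and Orc3 (1.15 and -1.56). The other features of Dtl, Cdc7 and Orc3 were not called.

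Agreement between the probes of a gene was counted for each sign of the difference. Of 452 genes with several features and at least 1 called higher with the medium, 64 (14.2%) had a second feature called the same way. Of 253 such genes called lower, 67 did (26.5%). Within the opposite class the figures were 18 of 76 (23.7%) for genes up with the medium and 30 of 75 (40%) for genes up with Y27632. These count a second feature called for the difference. A second feature that was itself of opposite direction was found for only 5 of the 76 and 17 of the 75. The other features of genes called higher had a median difference of 0.290 SD units, and those of genes called lower of -0.354. These shares were not tested against each other, and probes for different transcripts of a gene need not agree.

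The largest positive differences show this. Crem, a transcription factor of cAMP signalling, ran from 4.67 to 10.7 SD units with the medium and from -1.61 to -0.775 with Y27632 on one feature (difference 8.60 ± 0.350). Its other 5 features had means between -1.59 and -0.953 with the medium and differed by -0.140 to -0.495. Tut7, which adds uridines to RNA ends, differed by 8.41 ± 0.218 on one feature and by 0.102 and -0.289 on the others. The same held for the chromatin remodeller gene Chd1 (8.27, against 0.589 and -0.166), the fatty acyl-CoA reductase gene Far1 (8.15, against at most 1.32) and the Polycomb-related gene Sfmbt1 (7.40, against 0.250). Rtl3, derived from a retrotransposon (7.88 ± 0.155), and Wnt2, a secreted Wnt ligand (7.68 ± 0.334), had 1 feature each. The largest negative differences were mixed. Both features of Tinagl1 (-6.09 and -5.22) and Gadd45b (-6.41 and -3.60) were called lower. Id2 (-7.57 against -0.566) and Klrb1c (-6.54 against -0.836) each had a feature with a much smaller difference. Both features of Cd36 (-4.11 and -4.38) and all 3 of Fgfr3 (-4.92, -4.55 and -3.53) were called lower. These 2 genes were named by a rule that needs at least 2 features called the same way, so their agreement is no separate result.

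**Figure D4:**
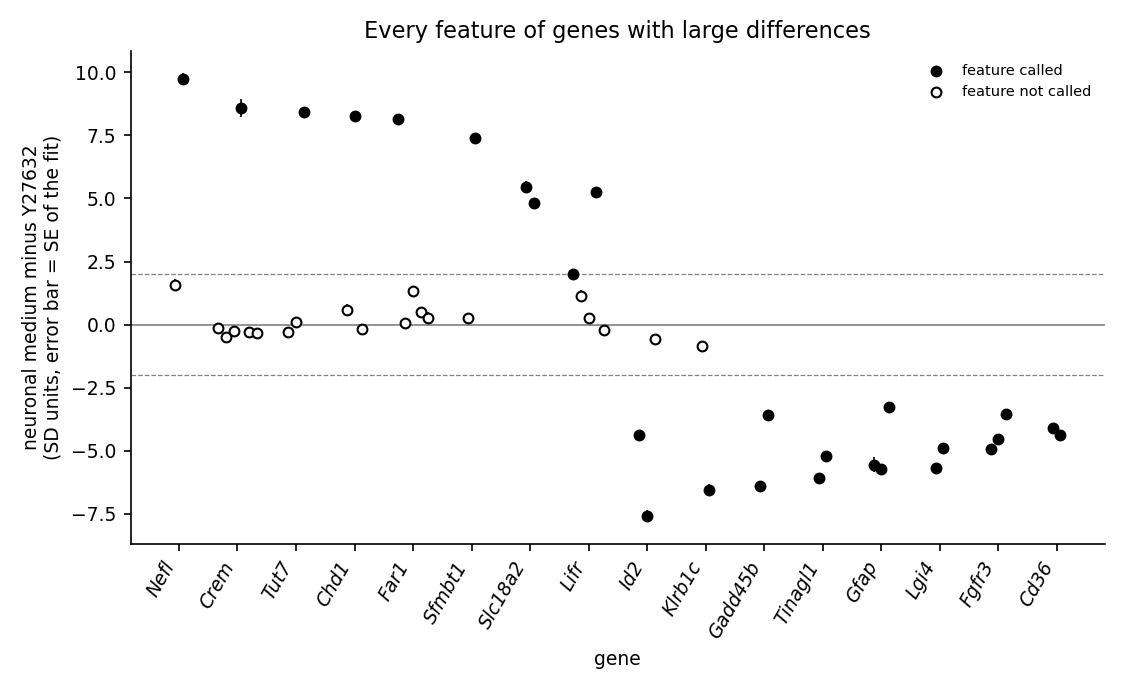
Difference between treatments (conditioned neuronal medium minus Y27632, SD units, error bars are the SE of the fit) for every feature of 16 genes. Filled points are called features, open points are not, and dashed lines mark a difference of 2 SD units. For Crem, Tut7, Chd1, Far1 and Sfmbt1 a single feature lies above 7 while the others lie near 0, apart from a Far1 feature at 1.32. All features of Gadd45b, Tinagl1, Gfap, Lgi4, Fgfr3 and Cd36 are called lower, and Id2 and Klrb1c each have a feature that is not called. Fgfr3 and Cd36 were named by a rule that needs at least 2 features called the same way.

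Of the features with a response of at least 2 SD units to the medium and under 0.5 to Y27632, 245 were up and 86 down with the medium. A mean under 0.5 is not an absent response: for 84 of the 331 features the Y27632 mean passed its own test. The matrix protein gene Tinagl1 ran from -7.17 to -5.40 SD units with the medium (median -6.58) and from -0.938 to 0.118 with Y27632 (median -0.113). Fgfr3, a fibroblast growth factor receptor of glial precursors and astrocytes, ran from -5.97 to -3.11 (median -4.75) and from -0.353 to 0.995 (median 0.285). Neither gene overlapped between treatments, and their Y27632 arrays lay around 0. Cd36, a scavenger receptor for fatty acids, had medians of -3.75 and 0.0437, the transcriptional cofactor Lmo4 of -3.76 and -0.278, and F3, the initiator of blood clotting, of -3.33 and -0.381. The Y27632 means of the features given for Fgfr3, Lmo4 and F3 passed their test (limma adjusted p = 0.025, 0.039 and 0.0099). So did those of 1 further feature each of Fgfr3 (0.749), Cd36 (0.709) and F3 (-0.639), and of both other Lmo4 features (0.706 and 0.694). Those Lmo4 features thus rose with Y27632 and fell with the medium (-0.751 and -2.98). Upward, the mitochondrial carrier gene Slc25a46 had a median of 6.93 with the medium and 0.295 with Y27632, and Fam91a1, a factor of vesicle transport, 5.63 and -0.371. Rtkn2, a gene of the rhotekin family, had medians of 5.56 and -0.0359, and the planar polarity gene Prickle1 of 3.40 and 0.346. As the rule that named them required, each of these 4 had a second feature called higher with the medium, by 2.57 to 2.76 SD units. On that second feature Slc25a46 (-1.58), Fam91a1 (-0.820) and Rtkn2 (-0.765) fell with Y27632 past its test, and Slc25a46 was in the class of opposite direction. A Slc37a2 feature placed here overlapped between treatments, with arrays from 0.181 to 11.7 with the medium, and its difference of 4.39 ± 1.29 SD units (limma adjusted p = 0.014) did not pass without a dye term (adjusted p = 0.07). The other Slc37a2 feature was of opposite direction, with means of 1.57 and -1.31.

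With at least 2 SD units for Y27632 and under 0.5 for the medium, 29 features were up and 52 down, and the medium mean passed its own test for 18 of these 81. Apod was among the 29. Downward, Wdr36, which acts in ribosome assembly, ran from -5.42 to -2.51 SD units with Y27632 (median -3.96) and from -1.001 to 1.19 with the medium (median 0.237). Its second feature, which the same naming rule required to be called, differed by 2.18. Thoc1, a subunit of the THO complex of mRNA export, had medians of -2.88 and -2.13 with Y27632 on 2 of its 4 features and of 0.0848 and 0.159 with the medium. The small GTPase gene Rab8b had medians of -2.53 with Y27632 and 0.177 with the medium on one feature, but its other 2 features rose with the medium (1.03 and 0.663) and fell with Y27632 (-0.463 and -1.76). The spindle gene Haus6 overlapped between treatments (-3.90 to -1.25 with Y27632, -2.26 to 1.18 with the medium), and its second feature rose with the medium (1.19) and fell with Y27632 (-0.879). Ptcd3, of the mitochondrial ribosome, was placed here by one feature (median -2.70) and among the responses to the medium by another (median 5.59 with the medium and 0.549 with Y27632). The first of these Ptcd3 features overlapped between treatments, its Y27632 arrays reaching 0.00664, and its difference did not pass without a dye term (limma adjusted p = 0.054). In the called features with means of the same sign, the response was larger with the medium for 266 and larger with Y27632 for 58.

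Gene lists gave the contrast at the level of genes, taken as the mean of their features. Over all 19087 genes, 4300 were higher with the medium (22.5%) and 5274 lower (27.6%) at an adjusted p under 0.05, and the median difference was -0.0556 SD units, so a list has to be read against these shares. The lists were chosen with earlier results of these data known, and no list was tested as a set.

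Astrocyte and neuron markers leaned to opposite sides. Of 10 astrocyte markers, 7 were lower with the medium, 2 higher and 1 did not pass, with a median difference of -0.881. Besides Gfap (-4.85 as a gene mean) and Fgfr3 (-4.33), the glycolytic enzyme gene Aldoc (-1.72) and the calcium-binding protein gene S100b (-1.30) were lower, and the glutamate transporter gene Slc1a3 (0.667) and the gap junction gene Gja1 (1.04) were higher. In bulk RNA of this cell line, fewer cells expressing a gene and less of its RNA per cell cannot be told apart. Of 13 neuron markers, 10 were higher with the medium, 2 lower and 1 did not pass, with a median of 0.759. After Nefl (5.66), the growth cone gene Gap43 differed by 3.27, neuronal tubulin Tubb3 by 1.95 and the glutamate vesicle transporter gene Slc17a7 by 1.78, while Map2 (-1.08) and Nefh (-0.300) were lower. Only part of this came from the medium side: the gene means of the neuron markers ran from -0.823 (Map2) to 3.08 (Nefl) with the medium and from -2.78 (Gap43) to 0.480 (Nefh) with Y27632, and Rbfox3 had -0.166 and -0.208. The medium came from neuron-enriched cultures, and the part that RNA from those cultures may have in these values was not tested. Microglial markers gave 3 higher, 1 lower and 4 not passed of 8, with C1qa (2.86) and P2ry12 (-3.17) at the ends. Of 4 measured Schwann cell markers, 3 were lower, led by Ngfr (-1.35), and Gap43 was higher. Of 6 endothelial markers, Cdh5 (-0.413) and Kdr (-0.373) were lower and 4 did not pass.

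More oligodendroglial and myelin genes were higher with the medium than lower. Of 10 oligodendroglial markers, 5 were higher and 1 lower, and of 34 myelin and differentiation genes 14 were higher, 5 lower and 15 did not pass (median 0.219). The transcription factors Olig1 (4.32) and Olig2 (3.29) and the myelin genes Cnp (3.25), Ugt8a (2.41) and Opalin (4.77) differed most, and all of them had positive means in both treatments. Mbp, the major cytoplasmic myelin protein gene, was lower (-0.830), with means of -1.19 and -0.362. Trf, which encodes the iron carrier transferrin and was picked after its value was seen, differed by -2.06, with means of -0.742 with the medium and 1.32 with Y27632. In the list of Id, Hes and BMP genes, 8 of 24 were higher and 6 lower. The 4 with the smallest adjusted p were all lower, Id2 (-4.17), Id4 (-2.91), Id1 (-3.22) and the BMP pseudoreceptor gene Bambi (-1.94). Id1 and Id4 had means of -3.03 and -2.78 with the medium and of 0.182 and 0.131 with Y27632.

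More immediate early and stress-response factors were lower with the medium than higher. Of 22 immediate early genes, 13 were lower, 2 higher and 7 did not pass, with a median difference of -0.723, and 6 of them fell with the medium and rose with Y27632 with both means past their test, as did 7.09% of all genes. Gadd45b (-5.01), the phosphatase gene Dusp4 (-3.34) and Ier3 (-3.33) led the list, and the 2 higher ones were the growth regulator Myc (1.90) and Ier2 (0.358). Of 20 AP-1 and Atf factors, 8 were lower, 3 higher and 9 did not pass. Fosl1 (-3.62), Atf3 (-3.10) and Batf3 (-1.63) were lower, while Atf6, a sensor of the unfolded protein response, differed by 6.38 on one feature and -0.188 on the other. Of 21 STAT3 and reactive glia genes, 7 were lower and 2 higher, with the hyaluronan receptor gene Cd44 at -2.01 and Lifr at 1.69.

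Cytoskeletal lists were mixed. Of 16 intermediate filament genes, 10 were lower with the medium and 3 higher (median -0.565), among them Prph (-1.90) and Lmna (-1.69). Of 32 actin and SRF targets, 12 were lower, 7 higher and 13 did not pass, with Actn1 (-2.04) and Cnn3 (-1.57) lower and Tpm1 (0.864) higher. Of 20 YAP and TEAD targets, 10 were lower, 4 higher and 6 did not pass. Ccn1, a matricellular protein gene, differed by 3.23, with a mean of -4.12 with Y27632 and -0.893 with the medium, while Wwtr1, which encodes the coactivator TAZ, differed by -2.30, with means of -1.89 with the medium and 0.413 with Y27632. Of 33 matrix genes, 15 were lower and 9 higher, with the neural matrix glycoproteins Tnr (5.55) and Tnc (2.76) at the upper end and Tinagl1 (-5.66) and Adamts1 (-2.53) at the lower.

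Lists of metabolism and growth followed. Of 35 ribosomal protein genes, 24 were lower with the medium and 4 higher (median -0.552), and 9 fell with the medium and rose with Y27632 with both means past their test, against the same 7.09% of all genes, such as Rpl10 (-0.849 and 0.693) and Rpl7 (-0.429 and 0.691). Of 34 genes of oxidative phosphorylation, 21 were lower and 4 higher (median -0.548). These shifts were small beside those of the named features. Of 29 glycolysis and hypoxia genes, 15 were lower and 4 higher. Of 41 cell cycle genes, 16 were higher, 7 lower and 18 did not pass, with Cdk6 (2.21), Kif11 (1.74) and Ccne2 (1.85) higher and Ccnd1 (-1.68) lower. Of 11 Fxyd and sodium pump genes, 7 were lower and 2 higher. Besides Fxyd3, Fxyd1 (-1.43), Atp1b3 (-1.05) and Atp1b2 (-1.62) were lower. Of 10 Cyp2c genes, which encode similar cytochrome P450 enzymes whose probes may share signal, 8 were higher and none lower (median 1.15), led by Cyp2c39 (4.19), Cyp2c37 (2.18) and Cyp2c29 (4.40). Of 26 cAMP genes, 9 were higher and 5 lower, and the dopamine receptor genes Drd4 (2.99) and Drd2 (2.88) differed on 1 of 2 features each. Of 20 genes of lipid transport, 7 were higher and 5 lower, with Apoe (2.47) and Abcg1 (1.46) higher and Lcat (-3.64) and Apod (-3.81) lower. Sterol synthesis (6 higher and 7 lower of 19), Wnt signalling (8 and 8 of 29), the interferon response (6 and 8 of 25) and the unfolded protein response (8 and 13 of 29) had members on both sides.

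**Figure D5:**
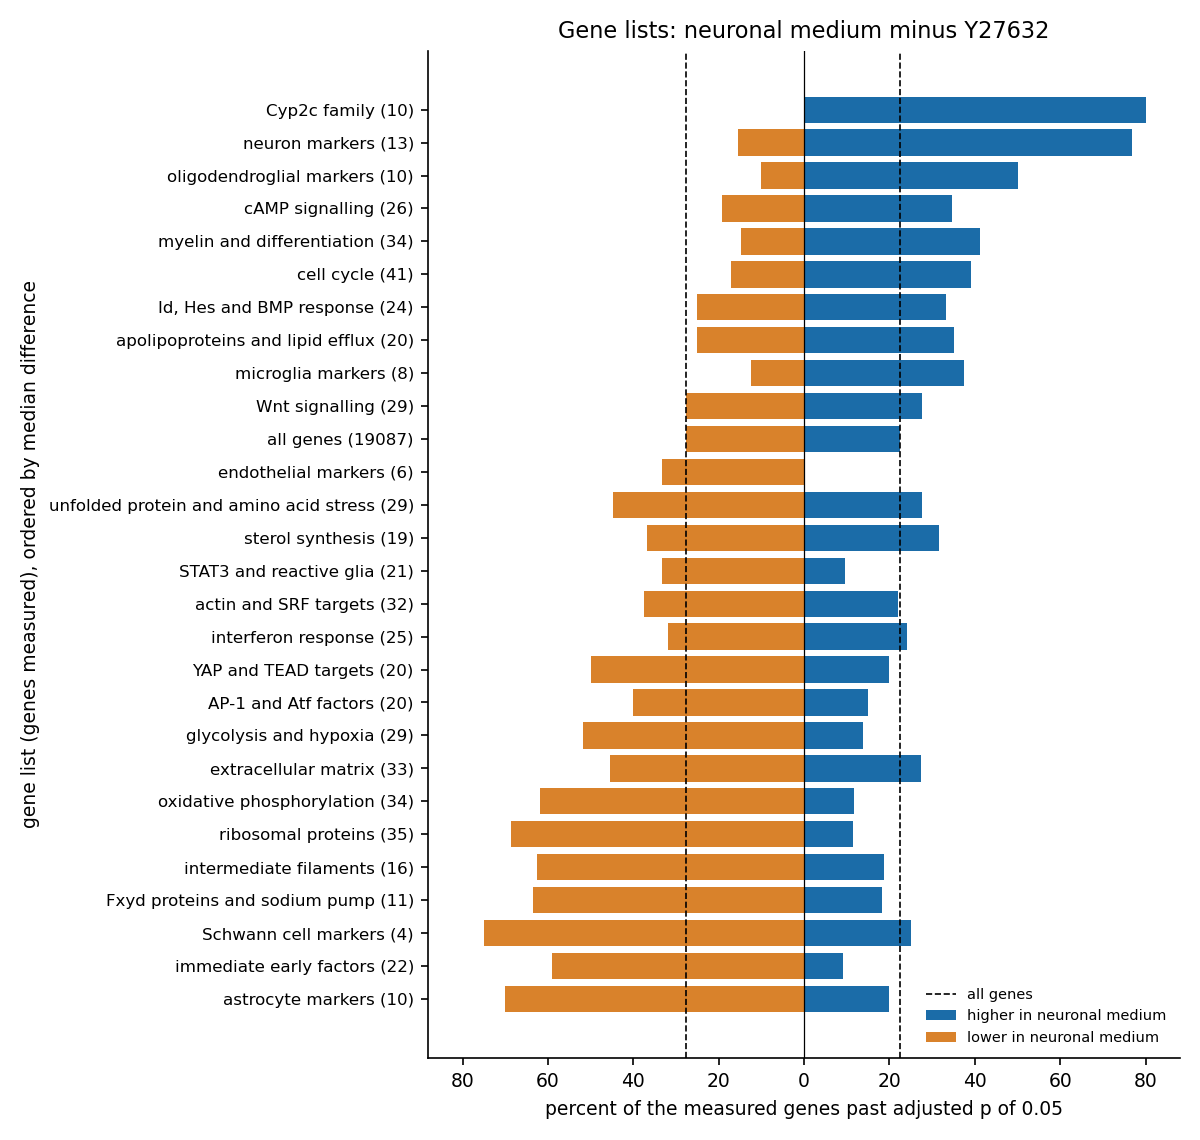
Share of the measured genes of each list reported that passed an adjusted p of 0.05, higher (blue, to the right) or lower (orange, to the left) with conditioned neuronal medium than with Y27632, in percent. Lists are ordered by their median difference, the number of genes measured stands in parentheses, and dashed lines mark the shares over all genes, 22.5% higher and 27.6% lower. Neuron markers, Cyp2c genes and myelin genes extend to the right, and astrocyte markers, immediate early factors and ribosomal protein genes to the left.

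Some genes of opposite direction lie next to each other in the RefSeq order of protein-coding genes. Lgi4 and Fxyd3 are adjacent on chromosome 7, and both fell with the medium and rose with Y27632. Cdkn2a and Cdkn2b are adjacent on chromosome 4 and shared that direction, whereas Mtap, on the other side of Cdkn2a, rose with the medium (1.30 SD units) and fell with Y27632 (-1.07). Twist1 and Hdac9 are adjacent on chromosome 12 and differed in the opposite sense: Twist1 had means of -1.58 and 1.05, and Hdac9 of 1.01 and -2.01 on 1 of its 4 features. No count of neighbouring pairs was compared with chance.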

How the data were processed

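RNA of Oli-neu cells was amplified by PCR, labelled and hybridised by the authors to 2-colour 44K mouse arrays with a dye swap. The authors extracted intensities, normalised them by loess and replaced saturated features from a low-gain scan. The deposited values are a score per feature and array, a standardised log ratio with an SD of 1 on each array, and arrays with exchanged dyes had already been turned. The log base, centring and scaling are not given in the sources used here, and the array values come without depth or background. The number of arrays, which are technical replicates, limits the precision. Probe names come from the platform annotation, which lists 32089 probes. Of 41230 measured features, 31700 had 1 gene symbol, 47 several and 9483 none.

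The sign was reversed to treated over untreated. Differences were fitted with limma 3.58.1 in R 4.3.3 over all 12 arrays, with a mean per treatment and a dye term per experiment (8 residual degrees of freedom), and p-values were Benjamini-Hochberg adjusted over all measured features or genes. A feature was called at an adjusted p under 0.05 and a difference of at least 2 SD units. The opposite class further needed both means past an adjusted p of 0.05, of opposite sign and at least 1 in size. Gene values were means of the features of a gene. Named were the 5 marker genes, the 8 most positive and 8 most negative differences, the 12 features per direction of the opposite class with the largest smaller mean, up to 4 genes per list by adjusted p with members needed to name a small count, and up to 6 features per direction and treatment for responses of at least 2 SD units to 1 treatment and under 0.5 to the other, from genes with at least 2 features called the same way. Members, lists and motifs were chosen with earlier results of these data known, and 1 gene list is not reported here. The same numbers in both experiments do not pair arrays: deviations of same-numbered arrays correlated between -0.048 and 0.084. The scripts were tested on simulated data. Alternatives varied the dye term, centring, scale, thresholds, moderation, gene value and the arrays used.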

Additional observations from a re-analysis of the deposited data

How the results depend on the processing

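None of the 54 named features changed the sign of its difference in the alternatives run for them. Direction was not rerun for other features and genes, and gene lists were compared by their counts. Leaving out 1 array at a time gave 867 to 921 features higher and 600 to 643 lower with the medium, 112 to 135 and 172 to 191 of opposite direction, and 3956 to 4333 genes higher and 4882 to 5299 lower. With the replicate block there were 884 and 608 called features, and 4095 and 5065 genes. The block fit gave no mean per treatment. Its 118 and 182 of opposite direction reuse the means and own tests of the main fit, so they do not test that class. Scaling each array by its median absolute deviation called 1720 and 1314 features, with 317 and 369 of opposite direction. Multiplying the Y27632 values by 0.8 left 64 and 105 of opposite direction, and dividing them by 0.8 gave 215 up with the medium. The arrays with treated RNA in Cy3 alone gave 205 up with the medium. A difference of at least 1 called 3685 and 3344 features, and of at least 3, 259 and 168. An opposite class with means of at least 0.5 held 416 and 398 features, and of at least 2, 3 and 13. Without a dye term, 1850 genes were higher and 2126 lower, and with genes of 1 feature only 1934 and 3028, where fewer genes were tested. The cause of the other changes was not tested. Of 1188 alternative values for the 54 named features, 1185 stayed on the same side of an adjusted p of 0.05, and 3 did not: Slc37a2 without a dye term (adjusted p = 0.07) and in Cy3 alone (adjusted p = 0.051), and Ptcd3 without a dye term (2.784, adjusted p = 0.054). With the limit of 2 SD units added, 7 of the 1188 changed call. The further 4 were Haus6 with the Y27632 values multiplied by 0.8 (1.847) and in Cy3 alone (1.981), the same Ptcd3 feature in Cy5 alone (1.892), and the second Nefl feature, which reached 2.034 with the Y27632 values divided by 0.8. Counts in gene lists were rerun only with a shared dye term, with arrays centred on their medians, and with the Y27632 values multiplied or divided by 0.8. In these alternatives they stayed within 1.5 times in 217 of 224 cases. The lists were not recounted without a dye term or in the other alternatives.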
